A study of Drosophila melanogaster with 27 samples.

Results

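The genes described here belong to the Toll and Imd pathways, the signalling routes best known for the humoral immune response of Drosophila melanogaster. They are PGRP-SA, spz, Tl, cact, dl, Dif and Drs for the Toll pathway and PGRP-LB, imd and Rel for the Imd pathway. These 10 names were chosen for function, with earlier results of these data known. Of these, 9 were found among the 15348 genes of the count table, and all 9 passed the filter of at least 1 CPM (reads of a gene scaled to a common total of assigned reads) in at least 2 libraries. Drs was not analysed here, because the identifier that the reference pairs with that name was not matched in the table. PGRP-SA lies on the X chromosome, cact, dl and Dif on 2L, imd on 2R, and PGRP-LB, spz, Tl and Rel on 3R.

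In the Toll pathway, circulating recognition proteins such as PGRP-SA bind bacterial cell walls and set off a serine protease cascade that cleaves the ligand Spätzle, the product of spz. Cleaved Spätzle binds the receptor Toll, the product of Tl, and the inhibitor Cactus is then degraded, which frees the NF-kappaB factors Dorsal and Dif to enter the nucleus. In the Imd pathway, membrane or cytoplasmic recognition proteins signal through the adaptor Imd to the NF-kappaB factor Relish, while the amidase PGRP-LB breaks down the peptidoglycan that starts the signal. Both pathways induce antimicrobial peptides, chiefly in the fat body and blood cells of the larva, and Toll, Cactus and Dorsal also pattern the embryo.

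RNA was sequenced from imaginal discs, the epithelial sacs that give rise to the adult eyes and antennae, legs and wings. All groups carried hh-Gal4 with UAS-GFP, and since this driver acts in posterior compartment cells, every library mixed cells with and without the driver. Control discs also carried UAS-luc-RNAi against luciferase and were dissected on day 5. Tumour discs carried UAS-scrib-RNAi against the polarity gene scrib, the activated Ras transgene UAS-Ras[v12] and the luciferase hairpin, and were dissected on day 9 (replicate 1) or day 11 (replicate 2). In the other genotypes a TRiP hairpin took the place of the luciferase hairpin in the tumour. These were CG6272[HMS00057] on day 8, sd[JF02514] on days 7 to 8, Stat92E[HMS00035] on day 8, kay[HMS00254] on day 10 and tai[GL00514] on day 10. Control and tumour were each sequenced in eye-antennal, leg and wing discs, with 2 libraries per disc and 6 per genotype. CG6272 and sd had 4 libraries, in eye-antennal and leg discs. Of the 3 tai libraries 1 was from leg discs, of the 3 Stat92E libraries 2 were, and a single library, of eye-antennal discs, was titled kay. The discs of one library were pooled from 35 to 50 larvae at the wandering stage of the last instar, which had grown at 25 °C. Replicates were independent dissections.

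Several features of the libraries touch the values below. Each held 11.7 to 16 M reads assigned to genes. Genotype and larval age cannot be told apart in comparisons with control (day 5). Nor can they for the CG6272, sd and Stat92E genotypes (days 7 to 8) against tumours (days 9 and 11). The libraries titled tai and kay (day 10) lay between the tumour days, and the CG6272 and Stat92E genotypes shared day 8. In a bulk sample, fewer cells of a type and less RNA per cell cannot be told apart either. For the libraries titled sd, the genotype given for eye-antennal discs is that of the kay hairpin. Neither the sd, the tai nor the kay hairpin lowered its target past the threshold against tumours, so these are called by their titles. Ras85D, which also counts reads of the Ras transgene, stood at 265 to 314 CPM in control, 585 to 1310 in tumour and 347 to 643 CPM in the hairpin libraries. Markers of the labelled disc were highest in that disc among controls, whereas the summed eye markers of eye-antennal discs were 1020 and 1060 CPM in control and 153 and 273 CPM in tumour libraries. Summed markers of hemocytes, the larval blood cells, were 205 to 423 CPM for control and 295 to 530 for tumour discs. These sums overlap and do not show the change of single markers. Taken over the discs, 3 of 11 (Hml, Sr-CI and Pxn) rose and none fell. Of all genes tested, 28.3% rose and 24.5% fell, which are also the shares for the fat body count below. The median log2 ratio of tumour to control was 0.72 over the 11 markers, beside 0.03 over all genes. Summed fat body markers lay between 514 and 9200 CPM for control and between 40.2 and 311 CPM for tumour discs, and 7 of 8 fell. No marker of either list was without reads over all control or all tumour libraries, and the part of blood cells and fat body in the values below was not tested.

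The first question was how these genes differed between tumour and control discs. The recognition gene PGRP-SA and the factor gene Dif rose about 10-fold, the receptor gene Tl fell, and the inhibitor gene cact did not pass the test. Taken over the discs, 6 of the 9 genes were higher (PGRP-SA, PGRP-LB, spz, dl, Dif and Rel) and 1 was lower (Tl). Of all 9814 genes tested, 52.8% were called, 28.3% higher and 24.5% lower. The median log2 change was 0.68 over the 9 genes and 0.03 over all genes. Changes are log2 ratios from edgeR's quasi-likelihood test, each with its SE, with p-values adjusted over all genes tested by Benjamini and Hochberg, and a call is an adjusted p under 0.05. Levels are CPM of single libraries or means with SD.

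**Figure D1:**
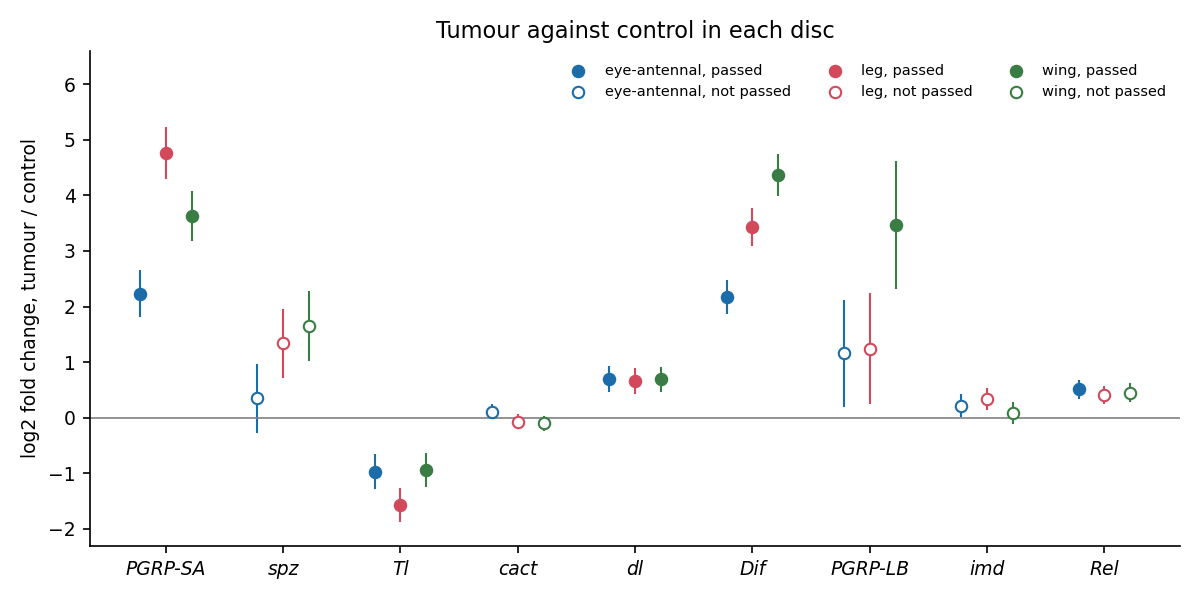
Log2 fold change of tumour against control for each gene (y axis) in eye-antennal, leg and wing discs, with bars of 1 SE. Filled points passed the test. PGRP-SA and Dif are high in each disc, Tl is below 0 in each, and cact and imd lie close to 0.

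PGRP-SA, the peptidoglycan recognition protein of the Toll pathway, was measured at 5.22 and 8.15 CPM in eye-antennal, 1.25 and 3.04 in leg and 4.43 and 1.99 CPM in wing libraries of control. In tumours it was at 29.7 and 33.2, 60.2 and 57.6, and 41.3 and 37.3 CPM in the same discs. Every tumour library lay above every control library, and leg discs went from the lowest control level to the highest tumour level. The change was 3.54 ± 0.26 over discs (adjusted p = 4.14e-08). It was 2.23 ± 0.42 in eye-antennal, 4.76 ± 0.47 in leg and 3.62 ± 0.45 in wing discs, and passed in each. A joint test that the tumour effect was the same in the 3 discs did not pass (adjusted p = 0.0683). It passed with DESeq2 (adjusted p = 0.00335) and without control leg replicate 2 (0.0295), and the alternatives reached 0.227.

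Dif, the NF-kappaB factor that acts with Dorsal in the Toll response of larvae and adults, was at 10.4 and 10.7 CPM in eye-antennal, 3.3 and 4.19 in leg and 2.09 and 1.48 CPM in wing libraries of control. In tumours the libraries of these discs held 43.1 and 52.1, 39.9 and 41.3, and 32 and 41.7 CPM. The control discs formed an order in which neighbours did not overlap, while the tumour discs were alike in level. Over discs the change was 3.33 ± 0.20 (adjusted p = 5.44e-09). By disc it was 2.17 ± 0.31 in eye-antennal, 3.43 ± 0.34 in leg and 4.37 ± 0.38 in wing discs. The joint test of these effects, which called 3.28% of all genes, passed for Dif alone among the 9 (adjusted p = 0.0438). Leaving out single libraries gave adjusted p from 0.0438 to 0.151, and the call was lost in 10 of 12 cases, which covered every control and tumour library except control leg replicate 2 and tumour wing replicate 1. The other alternatives gave 0.00145 to 0.2, the last from limma-voom with the dissection as a block. Among control discs, where 11.8% of genes differed, Dif was again the only one of the 9 that passed (adjusted p = 0.000643). That call was lost with limma-voom and the dissection block (0.0653), and the alternatives began at 5.03e-10.

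dl, which encodes Dorsal, ranged from 41 to 55.6 CPM in the controls, with a median of 50.3, and from 66.2 to 95.9 CPM in the tumours, with a median of 78.3. The groups did not overlap. The rise was 0.68 ± 0.13 over discs (adjusted p = 0.000473), and between 0.66 and 0.70 in each disc. The same joint test gave dl an adjusted p of 1.

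Tl, the receptor gene, had a lowest, median and highest level of 117, 157 and 198 CPM in controls and of 45.3, 66.6 and 101 CPM in tumours. No tumour library reached the lowest control library. Tl fell by 1.16 on the log2 scale (SE 0.18, adjusted p = 6.99e-05), and by 0.97, 1.57 and 0.94 in eye-antennal, leg and wing discs. Of the 9 genes it was the only one called lower in tumours.

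cact, the gene of the inhibitor that holds Dorsal and Dif in the cytoplasm, lay between 112 and 161 CPM in controls (median 133) and between 123 and 143 CPM in tumours (median 131). The tumour libraries fell within the range of the controls. The difference was -0.02 ± 0.07 (adjusted p = 0.863), and no single disc passed the test.

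spz, the ligand gene, was at 7.34 to 12 CPM in controls (median 8.83) and 4.97 to 40.2 CPM in tumours (median 16.9). The tumour libraries of replicate 1, dissected on day 9, were the high ones, with 18.5 CPM in eye-antennal, 40.2 in leg and 37.6 CPM in wing discs. The libraries of replicate 2, dissected on day 11, held 4.97, 15.3 and 11.5 CPM, of which the first is below every control. Over both days the rise was 1.12 ± 0.36 (adjusted p = 0.0167). With limma-voom and the dissection as a random block the call was lost (0.82, adjusted p = 0.175). Without tumour eye-antennal, leg or wing replicate 1 it was also lost, with changes down to 0.71. Against the controls, day 9 tumours alone gave 1.69 (adjusted p = 5.33e-05) and day 11 tumours alone 0.06 (adjusted p = 0.895), which are the lowest and highest adjusted p over the alternatives. No single disc passed for spz, and day and dissection cannot be told apart, since each day was 1 dissection.

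Tl, dl, imd and Rel also stood higher in replicate 1 than in replicate 2 of the tumours in every disc. The ratios of day 9 to day 11 were 1.62, 1.54 and 1.38 for Tl in eye-antennal, leg and wing discs, and 1.25, 1.37 and 1.3 for dl. In the same order they were 1.62, 1.09 and 1.18 for imd and 1.05, 1.12 and 1.18 for Rel. PGRP-SA had ratios from 0.894 to 1.11 and Dif from 0.767 to 0.965. Unlike the spz call, those of PGRP-SA, Dif, Tl, dl and Rel were kept with either day alone.

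**Figure D2:**
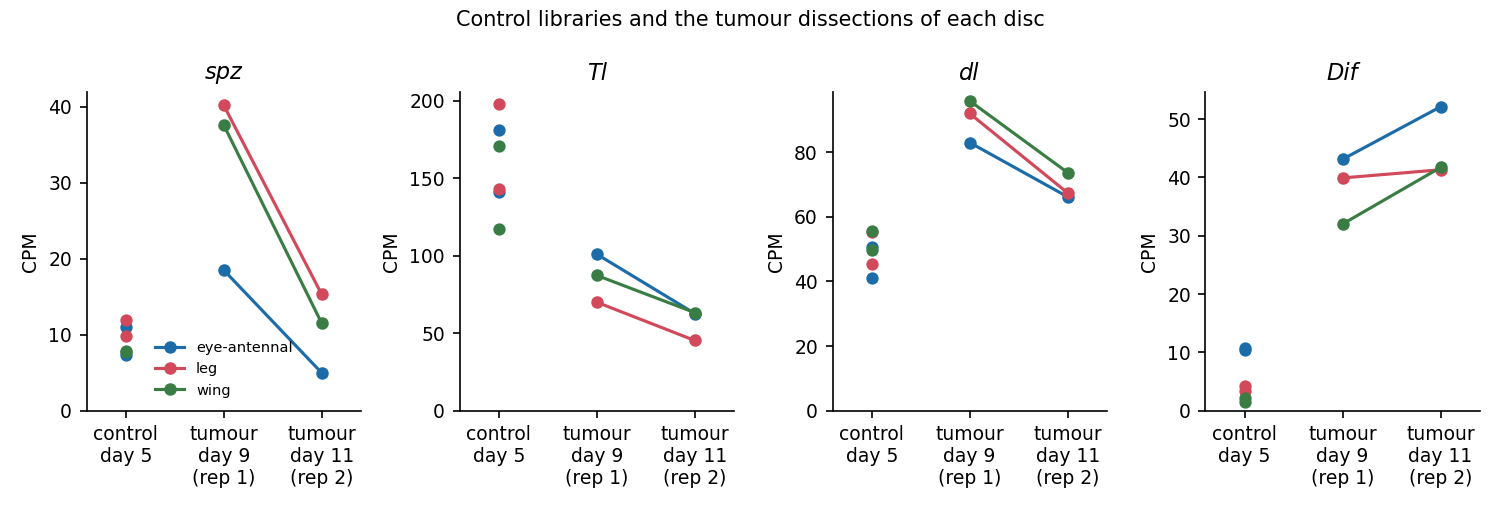
CPM (y axis, from 0) of spz, Tl, dl and Dif in control libraries of day 5 and in the tumour libraries of day 9 and day 11, where a line joins the dissections of 1 disc. spz falls from 18.5 to 40.2 CPM on day 9 to 4.97 to 15.3 CPM on day 11, and Dif stays above all controls on both.

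PGRP-LB, the amidase of the Imd pathway, was a gene of few reads. Control libraries held 0.833 and 2.67 CPM in eye-antennal, 0.807 and 0.676 in leg and 0.167 and 0.221 CPM in wing discs, the last from 2 and 3 reads. Tumour libraries held 2.83 and 5.05, 1.94 and 1.6, and 3.53 and 1.01 CPM. Control eye-antennal replicate 2 overlapped the tumours, and the other 5 controls lay below all of them. The rise was 1.96 ± 0.60 over discs (adjusted p = 0.0126), and wing discs alone passed on their own (3.47 ± 1.15, adjusted p = 0.0333). The wing call was lost without either control or without tumour replicate 1, and the call over discs was lost with the day 11 tumours alone (1.65, adjusted p = 0.0813). With limma-voom and the dissection block both were lost, with 1.82 over discs (adjusted p = 0.295) and 2.96 in wing discs (adjusted p = 0.347). Over its alternatives the adjusted p went from 0.0029 to 0.295.

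imd, the adaptor gene, was at 17 to 21.8 CPM in controls (median 18.8) and 15.9 to 25.9 CPM in tumours (median 23.4). The groups overlapped. The difference of 0.21 ± 0.11 did not pass (adjusted p = 0.129). It passed without tumour eye-antennal replicate 2 and with the day 9 tumours alone (0.34, adjusted p = 0.0183), and ranged from 0.0179 to 0.908 over the alternatives. The annotation places imd over GstE9 and Dp1 on the opposite strand, and the strand setting of the counting is not given in the sources used here. GstE9 rose by 2.66 ± 0.56 in tumours, from 1.09 to 6.8 CPM, and the part of its reads in the imd count was not tested.

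Rel, the gene of Relish, was at 71.6 to 93.6 CPM in controls (median 77.8) and 92.3 to 121 CPM in tumours (median 112). The lowest tumour library lay just under the highest control. Rel rose by 0.46 ± 0.10 (adjusted p = 0.00124), and passed on its own in eye-antennal discs (0.51 ± 0.17, adjusted p = 0.0379). That call was lost without any 1 of the 4 eye-antennal libraries. The overlapping gene Nmdmc, on the same strand, rose by 1.38 ± 0.14, and its part in the Rel count was not tested. Counted by disc, eye-antennal discs had 4 of the 9 genes higher and 1 lower, where 29.2% of all genes were called, 17.1% higher and 12.1% lower. Leg discs had 3 higher and 1 lower, where 38.3% were called, 19.7% higher and 18.6% lower. Wing discs had 4 higher and 1 lower, where 30.4% were called, 16.3% higher and 14.1% lower. Within a disc the calls of PGRP-SA and Dif, and that of Tl in leg discs, were kept in every fit without a single library. Those of dl in each disc, Tl in eye-antennal and wing discs and Rel were not, and the count of members called then fell to 2 or 3 in eye-antennal discs and to 2 in wing discs without control replicate 2.

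The second question was whether these genes differed when the tumour carried a further hairpin. PGRP-SA was at control level in the libraries titled sd, lay between control and tumour with the Stat92E hairpin, and was at tumour level with the CG6272 hairpin and in the libraries titled tai. Dif stayed far above control in every genotype. imd was lower than in tumours in the libraries titled sd and with the Stat92E hairpin. These comparisons share the tumour libraries, and use the eye-antennal and leg discs alone.

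**Figure D3:**
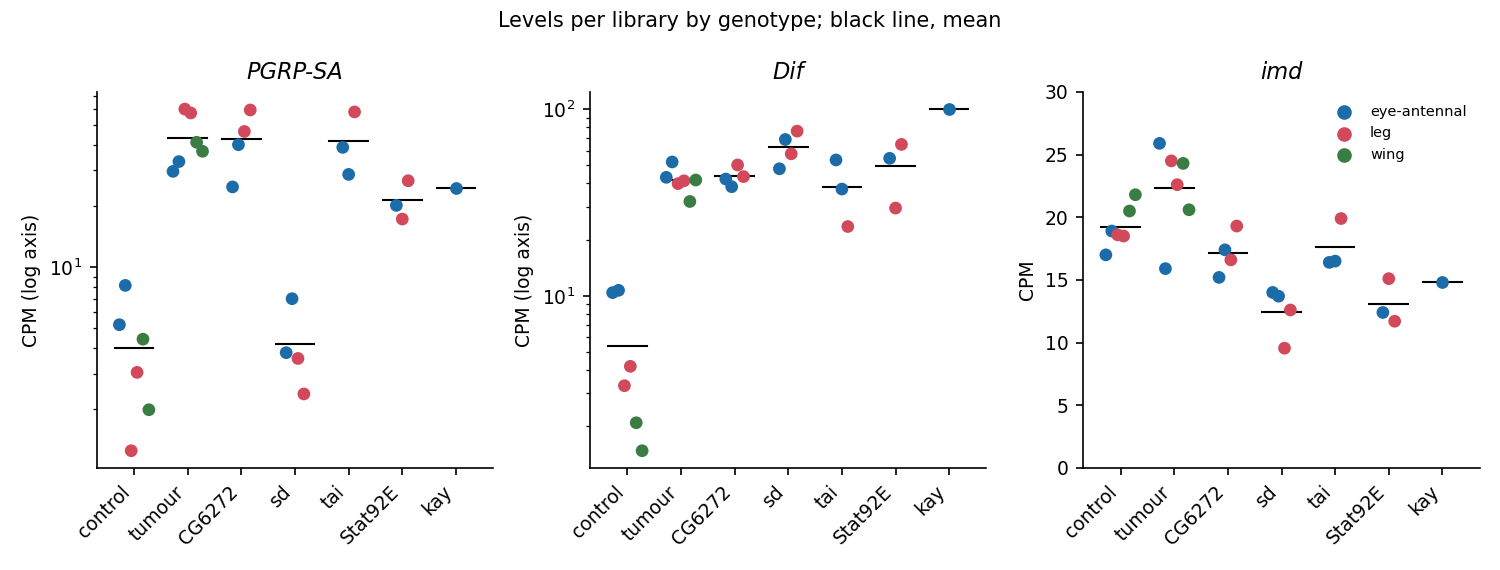
CPM per library (points, coloured by disc) and genotype means (lines) for PGRP-SA and Dif on log axes and imd on a linear axis from 0. PGRP-SA in the libraries titled sd (2.38 to 7.01 CPM) overlaps control, Dif is above control in every other genotype, and imd is lowest in the libraries titled sd and Stat92E.

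In the libraries titled sd, PGRP-SA was at 3.8 and 7.01 CPM in eye-antennal and 3.56 and 2.38 CPM in leg discs. These 4 libraries lie within the control range and below every tumour library. Against tumours PGRP-SA fell by 3.42 on the log2 scale (SE 0.31, adjusted p = 1.08e-05), in a comparison that called 21.3% of all genes, 9.26% higher and 12% lower. Leaving out single libraries moved the change between -3.67 and -3.21, the leg libraries alone gave -4.30 (adjusted p = 3.65e-05), and the libraries titled tai in place of the tumours gave -3.46 (adjusted p = 2.39e-05). The highest adjusted p over the alternatives was 0.000872. Against control discs the difference was 0.08 ± 0.32 (adjusted p = 0.885), which does not show that the levels are equal. Ras85D also fell against tumours in the libraries titled sd, by 0.65 (SE 0.21, adjusted p = 0.0364). It stood at 464 to 643 CPM in these libraries and at 481 to 590 CPM in those titled tai. Summed hemocyte markers were 135 to 335 CPM in the libraries titled sd, and summed fat body markers reached 12700 CPM in the second eye-antennal one. Their part in the PGRP-SA difference was not tested.

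Dif in the libraries titled sd was at 47.9 and 68.7 CPM in eye-antennal and 57.6 and 76.2 CPM in leg discs. All 4 were above every control, and 3 were above every tumour library. The change was 3.31 ± 0.24 against control (adjusted p = 1.74e-07) and 0.51 ± 0.21 against tumour, which did not pass (adjusted p = 0.0964). Against the libraries titled tai it did (0.94, adjusted p = 0.0309), with alternatives up to 0.3. Of the 9 genes, PGRP-SA and Dif had the largest rises in tumours, and in the libraries titled sd the first was at control level and the second at or above tumour level. Against control discs, where 31.3% of all genes were called, 16.5% higher and 14.8% lower, Dif and dl (0.49 ± 0.16, adjusted p = 0.0311) were higher and Tl (-1.22 ± 0.22) and imd (-0.56 ± 0.14) lower. With the leg libraries alone, dl no longer passed (0.48, adjusted p = 0.16, the highest over the alternatives, of which 10 of 16 passed), nor did it with limma-voom and the dissection block (0.48, adjusted p = 0.0601).

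imd was at 14, 13.7, 9.55 and 12.6 CPM in the eye-antennal and leg libraries titled sd. Each of these lay below every control and tumour library. It fell by 0.84 (SE 0.14, adjusted p = 0.000854) against tumours, and by 0.56 against control (adjusted p = 0.00659). GstE9, the overlapping gene, was 2.29 ± 0.67 lower than in tumours as well (adjusted p = 0.0254), but its difference from control was 0.21 ± 0.67 (adjusted p = 0.849). No other member was called in these libraries against tumours, which leaves 2 of 9, both lower. PGRP-LB, at 0.0767 to 1.32 CPM, was 1.85 ± 0.72 lower, which did not pass (adjusted p = 0.0789, with 0.0391 by DESeq2 and 0.0298 to 0.372 over the alternatives).

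With the Stat92E hairpin, imd was at 12.4 CPM in the eye-antennal and 15.1 and 11.7 CPM in the leg libraries. All 3 were below every control and tumour library. It fell by 0.78 (SE 0.16, adjusted p = 0.0058) against tumours and by 0.50 (SE 0.16, adjusted p = 0.0287) against control, a call lost without either control leg library, control eye-antennal replicate 2, the Stat92E eye-antennal library or leg replicate 2. It was also lost with limma-voom and the dissection block (-0.47, adjusted p = 0.0986). Fitted on the compared libraries alone, the call against tumours was lost (adjusted p = 0.117), and it passed in the other 13 of 14 alternatives. GstE9 was 1.71 ± 0.77 lower than in tumours and did not pass (adjusted p = 0.151).

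PGRP-SA with the Stat92E hairpin was at 20.2 CPM in the eye-antennal and 17.3 and 26.7 CPM in the leg libraries. These lay above every control and below every tumour library. Against tumours it fell by 1.03 (SE 0.32, adjusted p = 0.0474), a call lost in 5 of 7 fits without a single library, among them each of the 4 tumour libraries, and with no filter on low counts (adjusted p = 0.0613). Its adjusted p went from 0.0109 to 0.131. Against control it was 2.47 ± 0.33 higher (adjusted p = 7.36e-05). Ras85D fell by 0.90 (SE 0.24) against tumours in these libraries. The comparison with tumours called 13.3% of all genes, 6.5% higher and 6.8% lower, and 2 of the 9, both lower.

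With the CG6272 hairpin, which lowered its target, PGRP-SA was at 24.9 and 40.2 CPM in eye-antennal and 46.7 and 59.6 CPM in leg libraries. These overlapped the tumours, and the difference was -0.05 ± 0.27 (adjusted p = 0.936), while Ras85D fell by 1.10 (SE 0.21, adjusted p = 0.00273). Summed hemocyte markers were 493 to 853 CPM in these libraries, against 295 to 424 CPM in the eye-antennal and leg tumour libraries. Of 11 hemocyte markers, 2 (NimC1 and PPO2) were higher than in tumours, and 5 were higher and 1 lower than in control. Summed fat body markers were 181 to 3280 CPM, against 40.2 to 311 CPM in tumour libraries. Against tumours, 0 of 8 fat body markers passed, and 1 was lower than in control. The part of blood cells and fat body in the values of this genotype was not tested. Of the 9, cact alone passed against tumours, where 14.2% of genes were called, 5.33% higher and 8.92% lower. It was at 106, 99.9, 113 and 111 CPM, below every tumour library, and fell by 0.35 (SE 0.09, adjusted p = 0.0185). The call was lost in 5 of 8 fits without a single library. Against control, with 43.7% of genes called, 23.2% higher and 20.5% lower, PGRP-SA, dl, Dif and Rel were higher and Tl and cact lower, the last lost without control replicate 2 of eye-antennal or of leg discs. Between the CG6272 and Stat92E hairpins, where 4.89% of genes were called, none of the 9 passed with edgeR. There 3 had an unadjusted p under 0.05 (PGRP-SA, cact and imd), and DESeq2 called PGRP-SA (adjusted p = 0.0271, against 0.0932 with edgeR for a difference of 0.98 ± 0.32, and up to 0.299 over the alternatives).

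In the libraries titled tai, 0 of the 9 passed against tumours, where 2.72% of genes were called, 0.978% higher and 1.74% lower. None passed with DESeq2 or limma-voom, and none had an unadjusted p under 0.05. PGRP-SA was at 39, 28.7 and 58.3 CPM and Dif at 53.4, 37.3 and 23.5 CPM, and the leg library was the high one for PGRP-SA and the low one for Dif. PGRP-LB reached 13 CPM in the first eye-antennal library, against 2.48 and 0.666 CPM in the others. Against control, with 34.1% of genes called, 18.9% higher and 15.2% lower, PGRP-SA, dl, Dif and Rel were higher and Tl lower. The dl call (0.58 ± 0.18) was lost without control replicate 1 of either disc, the Tl call (-0.81 ± 0.25) without control replicate 2 of either disc or the leg library titled tai, and both without the first eye-antennal one. The Stat92E hairpin had 2 higher (PGRP-SA and Dif) and 2 lower (Tl and imd), where 26.7% were called, 15% higher and 11.7% lower.

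The 1 library titled kay held the highest Dif level of the study, 100 CPM, and PGRP-SA at 24.7 CPM. The Dif difference from eye-antennal tumours was 1.07 ± 0.35, which did not pass (adjusted p = 0.215). None of the 9 passed there with edgeR or DESeq2, where edgeR called 0.183% of genes, 0.0713% higher and 0.112% lower, and Dif was the 1 gene with an unadjusted p under 0.05. The library was assumed to vary like the other groups. When the eye-antennal libraries titled sd were joined to it, as their genotype label reads, PGRP-SA was 1.40 lower than in tumours (adjusted p = 0.156), and no other alternative gave a lower one.

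**Figure D4:**
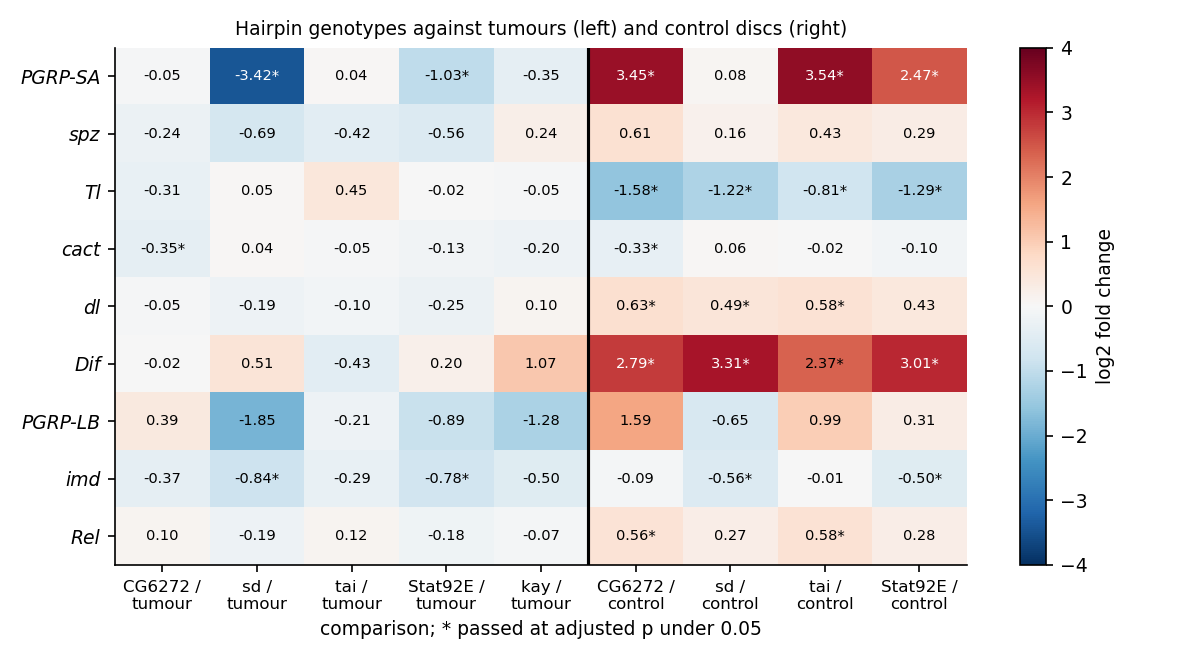
Log2 fold changes of the 9 genes (rows) for each hairpin genotype against tumours (left of the line) and, except kay, against control discs (right), with a star where the test passed. PGRP-SA is at -3.42 against tumours and 0.08 against control in the libraries titled sd, while Dif is between 2.37 and 3.31 against control in all 4.

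Ranked by group mean, PGRP-SA ran from 58.9 CPM in tumour leg discs to 2.15 CPM in control leg discs. The top 10 of the 15 groups were the tumours and all hairpin genotypes except sd, and the sd groups (5.41 CPM in eye-antennal, 2.97 CPM in leg discs) stood among the controls, from which neither was separated by more than the spread of the libraries. The 10th group, Stat92E eye-antennal at 20.2 CPM, and the 11th, control eye-antennal at 6.69 CPM, were separated. Dif ran from 100 CPM in the library titled kay to 1.78 CPM in control wing discs, with the 3 control groups at the foot, each separated from the next. For Tl the 3 control groups were at the head (144 to 170 CPM), separated from the 4th, tai eye-antennal discs at 95.2 CPM, and below that no neighbours were separated.

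The other genes of the 2 pathways were then counted from lists of their components, which include the members. Of 11 genes of Toll recognition and the protease cascade tested, 4 rose in tumours and 5 fell, with a median log2 change of 0.04. For these counts and those of the lists that follow, the shares over all genes tested were the 28.3% higher and 24.5% lower given above. The rises were PGRP-SA, the proteases psh (3.39 ± 0.49) and Hayan (0.48 ± 0.09), which respond to microbial proteases, and the protease grass (1.06 ± 0.17). psh ranged from 0.148 to 1.59 CPM among controls and from 3.17 to 18.5 CPM among tumours, with no overlap. The falls were SPE, the enzyme that cleaves Spätzle (-2.20 ± 0.43), the cascade gene spirit (-2.15 ± 0.38), the recognition gene GNBP3 (-1.16 ± 0.09), GNBP1 and modSP. Controls held 1.67 to 9.18 CPM of SPE and tumours 0.265 to 1.68 CPM.

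Of 10 ligand and receptor genes tested, 3 rose (spz, spz3 and spz4) and 3 fell (Tl, NT1 and Toll-7), with a median of -0.21. spz3, a Spätzle family member, went from 13.1 to 23.7 CPM among controls to 60.4 to 135 CPM among tumours, a rise of 2.46 ± 0.17 (adjusted p = 2.6e-08). It lay at 15.9 to 36.6 CPM with the CG6272 hairpin (-1.95 ± 0.21 against tumours), at 21 to 37.3 CPM in the libraries titled sd (-1.69 ± 0.21) and at 31.8 to 56.8 CPM with the Stat92E hairpin (-1.27 ± 0.23). All 3 passed, the last lost without its eye-antennal library, and the libraries titled tai did not pass (-0.86 ± 0.23, adjusted p = 0.0623). spz4 rose by 2.26 ± 0.42, and NT1, which encodes a neurotrophin of the same family, fell by 1.03 (SE 0.16). The call of Toll-7 was lost in 6 of 12 fits without a single library.

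Of 9 genes of the intracellular Toll relay tested, dl, Dif and Gprk2, a kinase gene, rose in tumours and Pli and Myd88 fell, the last by 0.16 and lost in 9 of 12 fits without a single library. The median was 0.05. Gprk2 rose by 0.38 ± 0.07 and was lower than in tumours with the CG6272 hairpin (-0.40 ± 0.08), in the libraries titled sd (-0.46 ± 0.08) and with the Stat92E hairpin (-0.32 ± 0.09, lost in 4 of 7 fits without a single library). grass was lower in the libraries titled sd (-1.27 ± 0.22).

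Of 10 genes of Imd recognition and its dampers tested, 5 rose and 1 fell, beside 28.3% and 24.5% of all genes, with a median of 0.61. The receptor gene PGRP-LC fell, with 10.8 to 39.8 CPM among controls and 5.89 to 14.7 CPM among tumours (-1.08 ± 0.15). The rises were pirk, an inhibitor of the receptor complex (2.78 ± 0.50), PGRP-LB, PGRP-LF, a receptor-like inhibitor (0.84 ± 0.32, lost in 9 of 12 fits without a single library), the intracellular receptor gene PGRP-LE (0.34 ± 0.05) and GNBP2 (1.30 ± 0.13). GNBP2 was counted in this list, whereas GNBP1 and GNBP3 of the same family were counted with Toll recognition. A role of GNBP2 in the Imd pathway was not tested. The pirk levels, 0.0733 to 2.54 CPM among controls and 1.63 to 5.56 CPM among tumours, overlap, and its call was lost with limma-voom and the dissection block. PGRP-LE was lower than in tumours under the CG6272 and Stat92E hairpins and in the libraries titled sd and tai, by 0.24 to 0.34, with calls lost in 3 of 7 such fits for Stat92E and 1 of 7 for tai. In the tai comparison it was the 1 gene called across the lists of both pathways. Of 15 genes of the intracellular Imd relay, Fadd, key and Rel rose and Dredd, ben, Uev1A, eff and casp fell, with a median of -0.02. Among these 8 calls the changes of the genes other than Rel were between -0.32 and 0.50.

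Under the hairpins, further genes of these lists passed against tumours. Of all genes, 21.3% were called in the libraries titled sd, 14.2% with the CG6272 and 13.3% with the Stat92E hairpin. In the libraries titled sd, PGRP-SD, GNBP2, Fadd and key were lower, and PGRP-LC, NT1 and Pli higher. With the CG6272 hairpin, GNBP3, spz5, PGRP-LC, PGRP-LF and Dredd were higher and Pli lower. With the Stat92E hairpin, GNBP3, Pli, PGRP-LC and dnr1 were higher. Of these 17 calls, those of Pli in the libraries titled sd and with the Stat92E hairpin were the 2 kept in every fit without a single library.

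The antimicrobial peptide and other humoral effector genes, the best known targets of both pathways, had few reads in these discs. Of 27 names 26 were matched, all but Drs, so these counts do not cover that gene. Of the 26 matched genes 18 passed the filter, and of these 4 rose in tumours and none fell, with a median log2 change of 2.16. An effector gene could pass the filter through its high libraries alone, so the median is no measure of all 26. Listericin, a peptide gene known as a target of Jak/Stat and Imd signalling, ranged from 0.0733 to 0.609 CPM among controls and from 0.529 to 9.73 CPM among tumours. It rose by 3.26 ± 0.71 (adjusted p = 0.00127). The groups overlap, and the call was lost with limma-voom and the dissection block. The calls of Def, Dro and BomS3 were lost in 9, 8 and 10 of 12 fits without a single library.

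Summed over the 26 genes, the effectors held 3.96 to 42.8 CPM per control library (median 9.31) and 6.06 to 128 CPM per tumour library (median 14.5). In some genotypes single libraries stood far above the rest. These were tumour eye-antennal replicate 1 at 128 CPM, against 17.5 CPM in replicate 2, the first eye-antennal library titled tai at 270 CPM, against 18.6 CPM in the second, and control wing replicate 1 at 42.8 CPM, against 6.35 CPM in replicate 2. Both tumour eye-antennal libraries had similar PGRP-SA levels (29.7 and 33.2 CPM) and Dif levels (43.1 and 52.1 CPM). In the libraries titled sd the sum was 4.68 to 14.7 CPM and Dif was 47.9 to 76.2 CPM. With the CG6272 hairpin both eye-antennal libraries were high, at 45.9 and 59.5 CPM, against 14.1 and 15.4 CPM in leg discs. Against control, 4 of 18 effectors tested (AttA, BomS2, BomS3 and Listericin) were higher and Drsl5 lower for CG6272, and likewise for tai. These counts cover only genes that passed the filter, which a gene could do through its high libraries alone. In control, BomS2 reached 0.0738 CPM and BomS3 0.167 CPM at most. In the libraries titled tai, BomS3 had a median of 0.602 and a highest level of 41.2 CPM, and AttA 1.58 and 31.5 CPM. Of all genes, 23.2% were higher and 20.5% lower for CG6272, and 18.9% and 15.2% for tai. For sd and Stat92E, Drsl5 alone was called against control, as lower. Against tumours no effector passed for the CG6272, tai or kay genotypes. Def, DptA and Drsl5 were lower in the libraries titled sd and Def with the Stat92E hairpin, and each of these calls was lost in 5 or more of the fits without a single library.

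**Figure D5:**
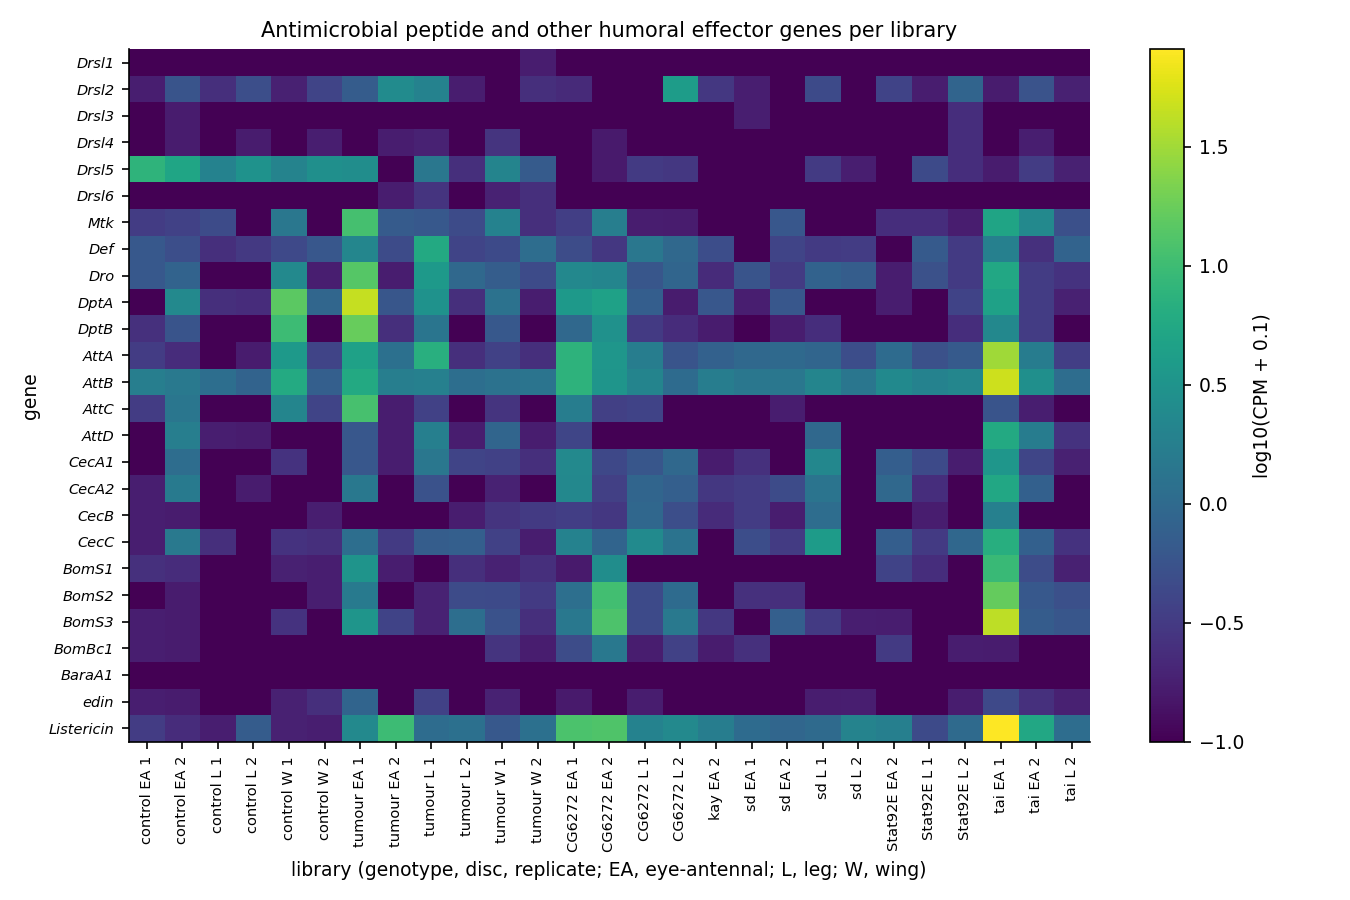
Levels of the 26 humoral effector genes (rows) in the 27 libraries (columns), coloured by log10 of CPM plus 0.1. The first eye-antennal library titled tai and tumour eye-antennal replicate 1 carry most of the high values, and their partner libraries do not.

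For the 3 genes with the largest tumour changes, the genes with the most similar pattern were ranked by Pearson's r of log2(CPM + 1) over the 15 group means, as a description, since the groups share the same tumour and control contrast. PGRP-SA was most similar to FBgn0013988 (r = 0.951), which had no symbol in the reference, CG2975 (0.947) and Rcd6 (0.945). All 3 were higher in tumours, CG2975 by 2.91 ± 0.22, and lower in the libraries titled sd than in tumours, by 2.71 for CG2975, 2.06 for FBgn0013988 and 1.74 for Rcd6. Dif was most similar to rdgA (0.956), Pdp1 (0.951) and CG31635 (0.942). All 3 were higher in tumours, rdgA by 0.67 ± 0.11, Pdp1 by 1.77 ± 0.16 and CG31635 by 0.27 ± 0.10. In the libraries titled sd, Pdp1 differed from tumours by 0.24 ± 0.19, which did not pass, and neither did rdgA or CG31635. PGRP-LB was most similar to BomT2 (0.866), RhoGAP102A (0.860) and jet (0.857). BomT2 belongs to the Bomanins, short peptide genes induced by Toll.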

How the data were processed

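The gene counts are those the authors deposited. TopHat2, HTSeq and the dm3 build are named, per the submitters' processing notes. No version, annotation, counting mode or strand setting is given in these sources. The summary lines of HTSeq stayed out of library sizes. Lines for reads aligned to several places were 15.8 to 22.9% of all lines in control, 54.4 to 76.1% in tumour and 26.1 to 61.5% in other libraries, and lines with no gene or several genes 1.64 to 5.96%. Gene names, chromosomes and overlaps came from the BDGP6 annotation, and no coordinates are given because the builds differ.

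Genes reaching 1 CPM in 2 or more of the 27 libraries (9814) were fitted in edgeR 4.0.16 (R 4.3.3) with TMM scaling, 15 group means and 12 residual degrees of freedom (common biological coefficient of variation 0.283). The quasi-likelihood F-test was adjusted by Benjamini and Hochberg over all 9814, in 16 comparisons. SE is the size of the log2 change over the root of F. The script was tested on simulated data. Alternatives were DESeq2 (1.42.0) size factors and test, no count filter, a minimum of 5 CPM, the replicate number as a block, limma-voom (limma 3.58.1) with the dissection as a random block, fits of the compared libraries only, leaving out single libraries and other readings of the sd titles. The split by tumour day and the comparison of sd with tai were chosen after seeing the data. The members and lists were chosen with earlier results of these data known. Named genes are the 9 members, list genes past the threshold in tumours or under a hairpin, and, for the 3 members with the largest called changes, the 3 most similar genes. Column names take another form for CG6272, Stat92E and kay, which cannot be told apart from these genotypes.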

Additional observations from a re-analysis of the deposited data

Results flagged for a closer look

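PGRP-LB in control eye-antennal replicate 2, at 2.67 CPM, stood far from the other control libraries, which lay between 0.167 and 0.833 CPM. It was the 1 case among 36 sets of libraries checked, where chance alone marks about 1 set in 20. Without that library the tumour change of PGRP-LB over discs was 2.32 in place of 1.96.

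The tumour effect on Dif differed between discs by the joint test (adjusted p = 0.0438), with log2 changes of 2.17 in eye-antennal, 3.43 in leg and 4.37 in wing discs. That call was lost with limma-voom and the dissection as a random block (adjusted p = 0.2). It was also lost in most fits without a single library, as given above. The tumour means were 47.6, 40.6 and 36.9 CPM and the control means 10.5, 3.75 and 1.78 CPM in the same order.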

How the results depend on the processing

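No called change of the 9 genes reversed under any alternative that was run. Settings that moved counts of called genes or members by over 1.5 times follow, and their cause was not tested except that fewer libraries were used. With the compared libraries alone, 3 members passed in eye-antennal and 2 in wing discs, 2135 genes passed in leg and 1274 in wing discs, 127 differed in tumour effect by disc, and against tumours 698 passed for CG6272, 1263 for sd, 16 for tai, 227 (1 member) for Stat92E and 2 for kay. DESeq2's test called 873 genes (2 members) for effect by disc, 2 members among control discs, 627 genes for tai, 258 for kay and 1020 (1 member) for CG6272 against Stat92E. limma-voom with the dissection as a random block (correlation 0.442) called 781 genes for effect by disc and 2116 among control discs (0 members in both), and 717 for CG6272, 1132 for sd, 84 for tai, 757 for Stat92E and 38 for kay against tumours, 2024 for sd against control and 150 for CG6272 against Stat92E. PGRP-LB (1.82, adjusted p = 0.295) and spz (0.82, adjusted p = 0.175) lost their tumour calls there. With no count filter 1 member passed for Stat92E. The leg libraries titled sd alone gave 2016 genes against control, tai in place of tumours 728, and the sd eye-antennal libraries joined to kay 323. Replicate numbers did not pair genotypes: same-numbered libraries of 1 disc had correlated deviations of -0.34 to 0.23 (median -0.05). The replicate block changed no member's call, and moved the genes called for kay from 18 to 11. Leaving out single libraries gave, for tumour against control, 1787 to 2039 genes and 2 to 3 members in eye-antennal and 1786 to 2804 genes and 2 to 5 members in wing discs, 171 to 447 genes (0 to 2 members) for effect by disc and 684 to 1189 (1 to 2) among control discs. Against tumours it gave 740 to 1671 (0 to 1) for CG6272, 1254 to 2267 for sd, 86 to 376 for tai, 756 to 1466 (1 to 2) for Stat92E and 5 to 9 for kay. Against control it gave 1964 to 3000 (3 to 5) for tai and 1622 to 2432 for Stat92E, and 159 to 561 for CG6272 against Stat92E. Most groups hold 2 libraries, and PGRP-LB and the effectors have few reads.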
